A study of Mus musculus with 18 samples.

Results

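The mRNAs of antigen presentation and of polymeric immunoglobulin transport were examined for 5-methylcytosine (m5C), a methyl mark on cytosines of RNA. The 9 genes were H2-K1, H2-D1 and B2m of major histocompatibility complex (MHC) class I, H2-Aa, H2-Ab1, H2-Eb1 and Cd74 of class II, and Pigr and Jchain. Their members are the m5C sites that fell in exons of their RefSeq transcripts, on the same strand, in the mm10 genome. There were 167 such sites among 17998 sites in mRNAs and 25890 sites in all. Each of the 9 genes carried a site, as did 2598 of 21000 annotated protein-coding genes. None of the 167 sites lay in an exon of another gene, and the introns and opposite strands of the 9 genes held 0 sites.

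The RNA is labelled as that of neurons from the cerebral cortex of C57BL/6 mouse fetuses at gestational day 18. Control neurons were compared with neurons kept without glucose and in a hypoxic chamber (oxygen-glucose deprivation) for 1.5 or 3 h and then returned to normal medium for 24 h, named OGD/R 1.5 h and OGD/R 3 h. No genotype or added agent is labelled for any group, and the gas mixture in the labels gives 21% oxygen. Each group had 3 bisulfite libraries. The coverage of replicates, where it was held, differed by less than sampling noise for OGD/R 3 h and for control, so the libraries of a group were counted as 1 sample. The same was assumed for OGD/R 1.5 h. No p-value is therefore given, and an SD describes the spread between libraries of 1 sample.

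MHC class I molecules show peptides made inside the cell to CD8 T cells. H2-K1 and H2-D1 encode heavy chains that span the membrane, and B2m encodes beta-2-microglobulin, the light chain they share. Class II molecules show peptides of engulfed proteins to CD4 T cells, and Cd74 encodes the invariant chain that guides them through the cell. Pigr encodes the receptor that carries polymeric antibodies across epithelia, and Jchain encodes the chain that joins antibody units into such polymers. In the brain, class I genes are made at low levels by neurons, while class II genes are known mainly from microglia and other immune cells.

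Most of the MHC genes lie together on chromosome 17. There H2-Ab1 spans 34263227 to 34269418 on the plus strand, H2-Aa 34282744 to 34287823 on the minus strand and H2-Eb1 34305867 to 34316674 on the plus strand. H2-K1 spans 33996012 to 34000333 on the minus strand and H2-D1 35263094 to 35267497 on the plus strand of the same chromosome. B2m lies on chromosome 2 from 122147687 to 122153082, Cd74 on chromosome 18 from 60803849 to 60812652 and Pigr on chromosome 1 from 130826684 to 130852249, each on the plus strand. Jchain lies on the minus strand of chromosome 5 from 88519809 to 88527897.

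The cell type on the labels was set beside lists of marker genes. Of 20 neuron markers, 0 carried a site in any of the 9 libraries, and so did 0 of 6 astrocyte markers, 0 of 11 markers of microglia and macrophages and 0 of 9 markers of B and dendritic cells. Of 21 genes that mark intestinal epithelium, 20 carried a site, Pigr being 1 of these 21. Of 8 plasma cell markers 3 did, namely Sdc1, Xbp1 and Jchain itself. The marker lists were chosen with earlier results of these data known, so their counts are no independent check. Of all annotated protein-coding genes, 2598 of 21000 carried a site. As far as such lists can show, the sites go against the label. The RNA is called by its label below only to name the groups. The summed sites of the epithelial list moved with the 9 genes, at 102 to 122 per library in control, 67 to 70 in OGD/R 1.5 h and 236 to 253 in OGD/R 3 h, and the part of this in the results below was not tested. Without Pigr and without Fcgbp, a mucus protein with 10 to 13 sites in control and 66 to 72 in OGD/R 3 h, the sums were 83 to 96, 42 to 50 and 140 to 158 in the same groups. The list was not uniform, since 10 of the 21 had more sites in every OGD/R 3 h library than in every control library and 3 (Fabp1, Lgals4 and Apoa4) had fewer, against 18.5% and 18.8% of all genes with a site. A site is listed only where enough reads cover it, so its listing also depends on the amount of the mRNA. In bulk RNA, fewer cells of a type and less RNA per cell cannot be told apart.

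The sequences around sites on which the results turn are shown first, with the listed cytosine in capitals in a window of 21 nt. They are the RefSeq reference sequence (GRCm38, the same assembly as mm10) of the mRNA strand, written as DNA. The first 3 pairs are cytosines of H2-K1 and H2-D1 that align with each other and carried a site in both genes in OGD/R 3 h. The fourth pair aligns as well and was listed in both genes, but in different libraries.
H2-K1 position 84, chr17:34000240-34000260, minus strand: gcgatggtacCgtgcacgctg
H2-D1 position 37, chr17:35263120-35263140, plus strand: gcgatggctcCgcgcacgctg
H2-K1 position 92, chr17:34000232-34000252, minus strand: accgtgcacgCtgctcctgct
H2-D1 position 45, chr17:35263128-35263148, plus strand: tccgcgcacgCtgctcctgct
H2-K1 position 95, chr17:34000229-34000249, minus strand: gtgcacgctgCtcctgctgtt
H2-D1 position 48, chr17:35263131-35263151, plus strand: gcgcacgctgCtcctgctgct
H2-K1 position 371, chr17:33999763-33999783, minus strand: ccgagtggacCtgaggaccct
H2-D1 position 324, chr17:35263599-35263619, plus strand: ccgagtgagcCtgaggaacct

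The next sequences carry the sites that were listed in 6 or 7 of the 9 libraries, which allow scores to be set side by side between groups.
H2-D1 position 28, chr17:35263111-35263131, plus strand: cagatgggggCgatggctccg
B2m position 75, chr2:122147751-122147771, plus strand: tgaccctggtCtttctggtgc
H2-Ab1 position 153, chr17:34263369-34263389, plus strand: ctgagcagccCagggactgag
Pigr position 80, chr1:130826753-130826773, plus strand: ggcttgcaggCtgtgcccgaa
Pigr position 165, chr1:130834403-130834423, plus strand: cacagcccccCtggaagccac
Pigr position 1839, chr1:130847486-130847506, plus strand: aaggccagacCtatggagaaa
Pigr position 2724, chr1:130851114-130851134, plus strand: aggaggtgaaCctgagagaca
Pigr position 3255, chr1:130851645-130851665, plus strand: tggtgtgctcCtgcaatccca

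Compared with control, the 9 mRNAs carried more sites after OGD/R 3 h and fewer after OGD/R 1.5 h. The control libraries listed 27, 39 and 30 sites in the 9 genes, or 32 ± 6.25 (SD over 3 libraries). Those of OGD/R 1.5 h listed 17, 16 and 17 sites, a mean of 16.7 ± 0.577. The OGD/R 3 h libraries listed 85, 81 and 80 sites, a mean of 82 ± 2.65. The libraries of the 3 groups did not overlap. On the log2 scale the ratio of means was 1.36 for OGD/R 3 h against control, -0.94 for OGD/R 1.5 h against control and 2.30 between the 2 OGD/R groups.

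The mRNA sites of all genes differed less between the groups. They numbered 3792 to 4137 per control library, 3501 to 3738 in OGD/R 1.5 h and 4703 to 5229 in OGD/R 3 h. In a control library the 9 genes held 0.81% ± 0.125 of its mRNA sites, against 0.464% ± 0.0188 in OGD/R 1.5 h and 1.68% ± 0.0506 in OGD/R 3 h. As shares of the library's mRNA sites, the log2 ratio of OGD/R 3 h to control was 1.05.

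**Figure D1:**
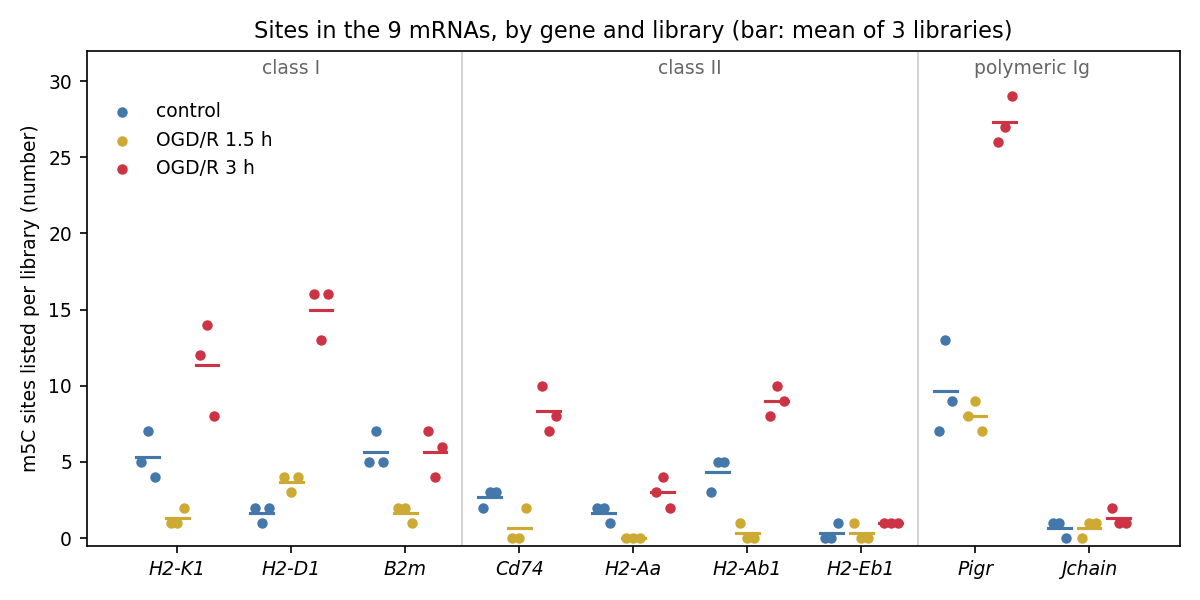
Number of m5C sites listed per library (y axis) in each of the 9 mRNAs (x axis), with 1 point per library and a bar at the mean of 3 libraries, coloured by group. Pigr carried 26 to 29 sites in OGD/R 3 h against 7 to 13 in control. The OGD/R 1.5 h points of H2-K1, B2m, H2-Aa and H2-Ab1 lie below all control points.

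Gene by gene, 5 of the 9 had more sites in every OGD/R 3 h library than in every control library, namely H2-K1, H2-D1, Cd74, H2-Ab1 and Pigr. Over the 2258 genes with a site in these libraries this held for 18.5%. In 0 of the 9 did every OGD/R 3 h library have fewer sites than every control library, against 18.8% of all genes. In OGD/R 1.5 h, 1 gene (H2-D1) had more sites than in control and 4 (H2-K1, B2m, H2-Aa and H2-Ab1) had fewer, against a background of 8.57% and 15.2% of 2322 genes. Between the OGD/R groups, 7 of the 9 had more sites in OGD/R 3 h, with the exception of H2-Eb1 and Jchain, and 0 had fewer. The background there was 19.8% with more and 13.5% with fewer sites, over 2180 genes. These comparisons share libraries and are not independent of each other. Backgrounds over all genes were not matched for the number of sites per gene. By summed sites, Pigr, H2-D1, H2-K1, H2-Ab1, B2m and Cd74 ranked 33, 111, 134, 196, 207 and 243 of 2598 genes. Most genes of the background therefore had fewer sites than these.

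Of the class I genes, H2-K1 had 5, 7 and 4 sites in the control libraries, 1, 1 and 2 in OGD/R 1.5 h and 12, 14 and 8 in OGD/R 3 h. The 3 groups did not overlap. H2-D1 had 2, 1 and 2 sites in control, 4, 3 and 4 after OGD/R 1.5 h and 16, 13 and 16 after OGD/R 3 h. No other gene of the 9 had more sites than control in every library of both OGD/R groups. The OGD/R 1.5 h sites of H2-D1 near the start codon had scores of only 0 to 11, and its others 57 and 69. The control sites of H2-D1 had scores of 81 to 212. Coverage and methylation level both enter a score. B2m, the light chain, had 5, 7 and 5 sites in control, 2, 2 and 1 after OGD/R 1.5 h and 7, 4 and 6 after OGD/R 3 h, so that its control and OGD/R 3 h libraries overlapped. Together the 3 class I mRNAs had 11 to 15 sites per library in control, 6 or 7 in OGD/R 1.5 h and 30 to 35 in OGD/R 3 h.

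Among class II genes, Cd74 had 2, 3 and 3 sites in control, 0, 0 and 2 after OGD/R 1.5 h and 10, 7 and 8 after OGD/R 3 h. H2-Ab1, the beta chain of the I-A molecule, had 3, 5 and 5 sites in control, 1, 0 and 0 after OGD/R 1.5 h and 8, 10 and 9 after OGD/R 3 h. Its partner H2-Aa, the alpha chain, had 2, 2 and 1 sites in control, 0 in each OGD/R 1.5 h library and 3, 4 and 2 in OGD/R 3 h. In H2-Aa the control and OGD/R 3 h libraries met at 2 sites, while in Cd74 and H2-Ab1 they did not. H2-Eb1, the beta chain of the I-E molecule, had at most 1 site in any library. Class II as a whole had 7, 10 and 10 sites per library in control, 2, 0 and 2 after OGD/R 1.5 h and 22, 22 and 20 after OGD/R 3 h. The log2 ratio of OGD/R 1.5 h to control was -2.75 for class II and -0.93 for class I, and whether these differ was not tested.

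Pigr held 52 of the 167 sites and ranked 33 of 2598 genes by its summed sites over the 9 libraries. It had 7, 13 and 9 sites in control, 8, 9 and 7 after OGD/R 1.5 h and 26, 27 and 29 after OGD/R 3 h. Its control and OGD/R 1.5 h libraries overlapped and those of OGD/R 3 h stood above both. Jchain had 1, 1 and 0 sites in control, 0, 1 and 1 after OGD/R 1.5 h and 2, 1 and 1 after OGD/R 3 h, and its groups met at 1 site. Pigr is also the longest of the 9 transcripts, with 3849 nt and 913 cytosines, so site numbers are not compared between genes.

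The sites were not spread evenly along the mRNAs. Each transcript was divided into the 5' UTR, the start codon region, the CDS, the stop codon region and the 3' UTR, with the codon regions reaching 100 nt to either side of the codon. In OGD/R 3 h the start codon region held 38 of the 118 distinct sites of the 9 genes, or 32.2%, against 23.3% of all mRNA sites. The share was 22.8% of 57 sites in control, where it was 23.9% of all mRNA sites, and 27.6% of 29 sites in OGD/R 1.5 h, where it was 19.4%. Relative to the cytosines available, OGD/R 3 h had 80.5 sites per 1000 cytosines in the start codon regions of the 9 mRNAs and 24.3 in the remaining CDS. In control these densities were 27.5 and 17.5 per 1000 cytosines.

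Class I and class II differed in where their sites lay. In OGD/R 3 h, 58.1% of 43 class I sites were in the start codon region and 6.98% in the 3' UTR. Class II had 25.7% of 35 sites in the start codon region and 31.4% in the 3' UTR. Pigr and Jchain had 10% of 40 sites in the start codon region and 30% in the 3' UTR. For all mRNA sites of OGD/R 3 h the 3' UTR held 8.05%. Cytosines of a gene are covered by the same reads, so these shares rest on 3, 4 and 2 genes and were not tested.

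**Figure D2:**
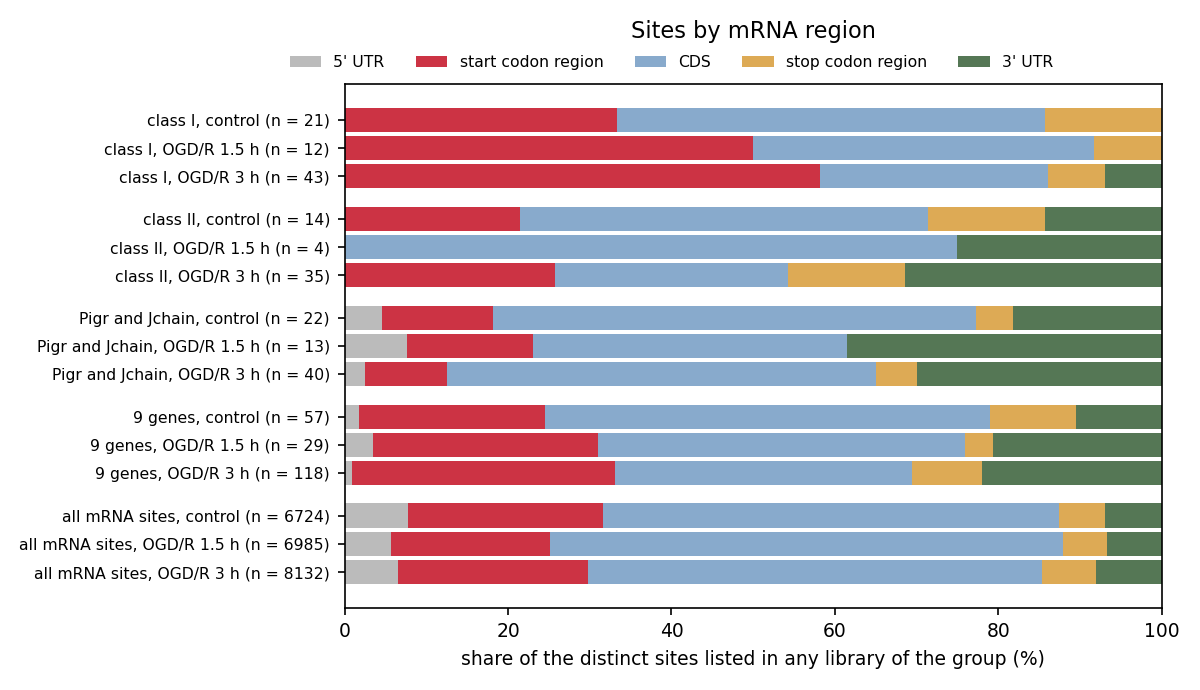
Share of distinct sites (x axis, %) in the 5 mRNA regions for class I, class II, Pigr with Jchain, the 9 genes and all mRNA sites, in each group (rows, with the number of sites). The start codon region made up 58.1% of the class I sites of OGD/R 3 h and 33.3% in control, while it stayed between 19.4% and 23.9% over all mRNA sites. The class I sites there were different genes' sites, with all 7 of control in B2m. In OGD/R 3 h, 9 were in H2-K1, 13 in H2-D1 and 3 in B2m.

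**Figure D3:**
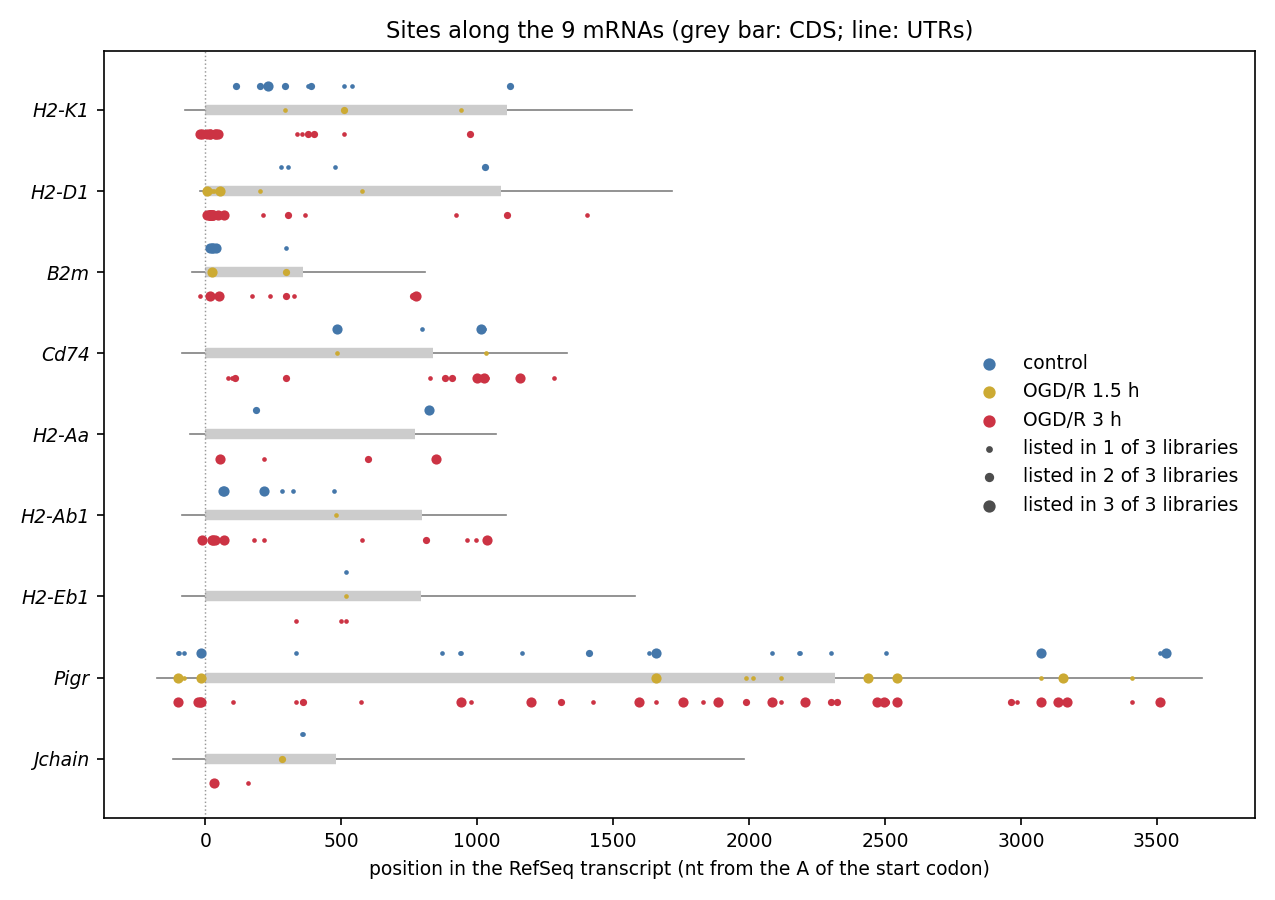
Sites along the 9 mRNAs by their distance from the start codon (x axis, nt), 1 line per gene, with control above, OGD/R 1.5 h on and OGD/R 3 h below the line, and larger points for sites listed in more of the 3 libraries. H2-K1 and H2-D1 have dense runs just past the start codon in OGD/R 3 h, where control has none, and B2m has such a run in control.

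The start codon regions of the class I heavy chains carried 0 sites in control. In OGD/R 3 h, H2-K1 had 9 sites there and H2-D1 had 13. In OGD/R 1.5 h, H2-K1 had 0 and H2-D1 had 5, the latter with scores of only 0 to 11. Of the H2-K1 sites, 8 were listed in all 3 OGD/R 3 h libraries, between 19 nt before and 45 nt after the start codon. H2-D1 had 10 sites between 7 and 29 nt past the start codon in OGD/R 3 h, which are all 10 cytosines of that stretch, and each was listed in all 3 libraries. They lie in exon 1, from 35263121 to 35263143 on chromosome 17. A listed site is a cytosine still read as C after bisulfite treatment, so a cytosine left unconverted would be listed too. Whether conversion was complete in this stretch was not tested.

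The scores of that H2-D1 run differed between libraries. The score of a site is a number from 0 to 1000 into which both coverage and methylation level enter, so it is not a level. At position 34 it was 209, 224 and 22 in the OGD/R 3 h libraries, and at position 36 it was 94, 343 and 20. At position 41 the values were 25, 224 and 7. Replicate 3 had the lowest score at 8 of the 10 positions and exceeded replicate 1 at positions 43 and 50.

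B2m showed the opposite order around its start codon. In control it had 7 sites between 16 and 47 nt past the start codon, among 11 cytosines, and 4 of the 7 were listed in all 3 libraries. Many scores of this run were low, as with 2 and 9 at position 85 and 18, 2 and 0 at position 90. The highest was 86, at position 79. In OGD/R 1.5 h 1 site was listed there, at position 75. In OGD/R 3 h the start codon region of B2m held 3 sites, at positions 32, 69 and 103, and these were not among the control sites. Position 69 had scores of 56, 58 and 142 in the OGD/R 3 h libraries, while control listed the neighbouring cytosine at position 68 with scores of 2, 1 and 3. Such neighbours occurred elsewhere too. Of 10 pairs of sites 1 nt apart in the 9 genes, 3 had no group in common, in B2m, in H2-D1 at positions 50 and 51 and in Pigr at positions 164 and 165.

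**Figure D4:**
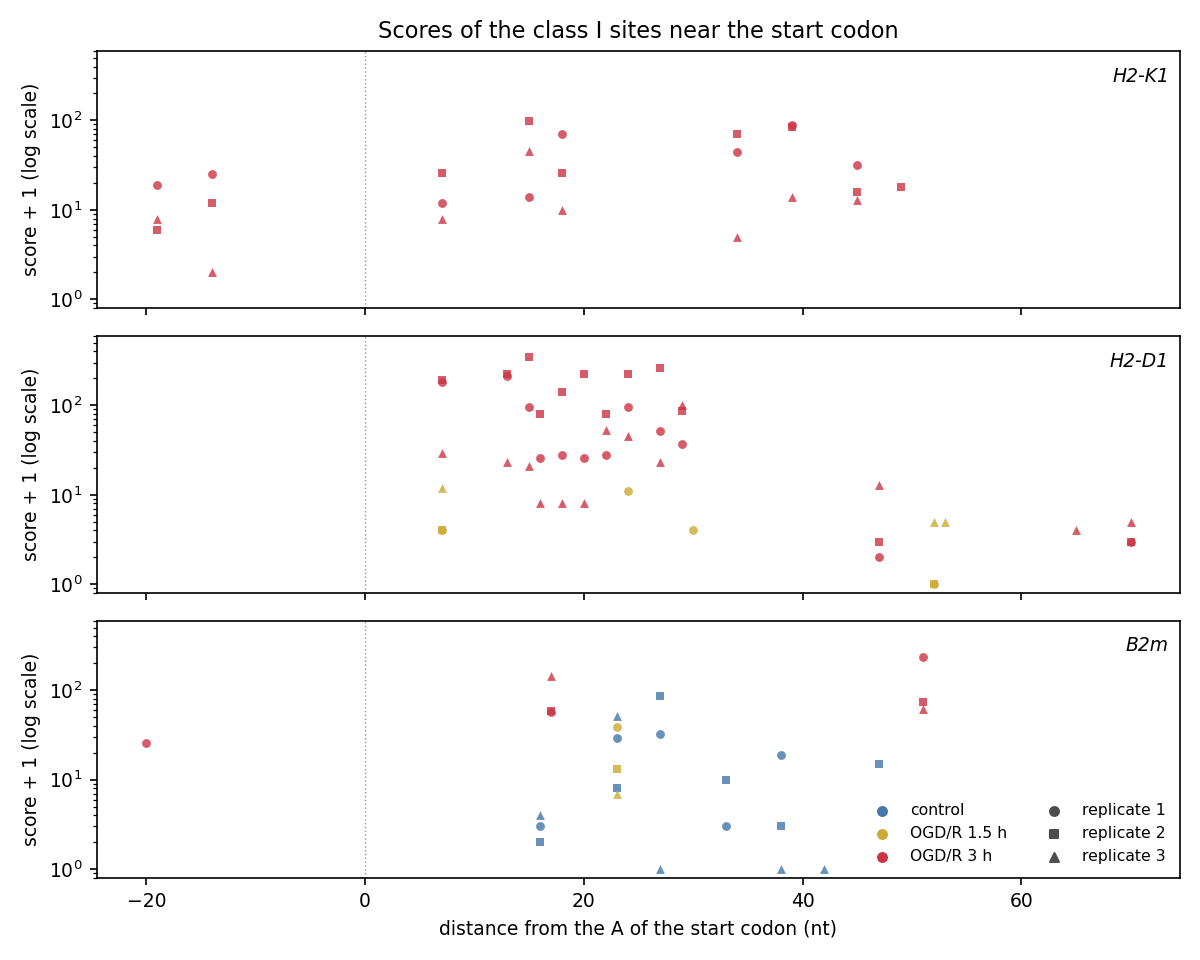
Score plus 1 (y axis, log scale) of each class I site near the start codon against its distance from it (x axis, nt), with colours for the groups and shapes for the 3 replicates of a group. In H2-D1 all 10 cytosines from 7 to 29 nt have a point for each OGD/R 3 h library, and the control points occur in the B2m panel alone.

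H2-K1 and H2-D1 descend from a common gene, and their coding sequences were 91.5% identical over 1080 aligned nt. Of 276 aligned cytosines, 35 carried a site in either gene and 4 in both. The first 3 of these pairs lay 7 to 18 nt past the start codon of H2-K1 and 16 to 27 nt past that of H2-D1. At position 84 of H2-K1 the OGD/R 3 h scores were 11, 25 and 7, and at the aligned position 37 of H2-D1 they were 25, 79 and 7. At position 92 of H2-K1 they were 13, 97 and 44, against 94, 224 and 44 at position 45 of H2-D1. At position 95 of H2-K1 they were 70, 25 and 9, against 51, 262 and 22 at position 48 of H2-D1. In each of these 3 pairs both genes were listed in all 3 OGD/R 3 h libraries, and control listed neither.

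The fourth pair, H2-K1 position 371 and H2-D1 position 324, behaved otherwise. H2-K1 was listed there in control replicates 2 and 3 with scores of 181 and 78, and in OGD/R 1.5 h replicate 1 with 162. H2-D1 was listed in control replicate 1 with 81 and in OGD/R 3 h replicates 1 and 3 with 52 and 51. No library listed both genes. H2-Ab1 and H2-Eb1, at 73.8% identity, had 157 aligned cytosines, of which 11 carried a site in either gene and 0 in both.

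Reads from such related genes can be placed on the wrong copy, which makes some class I sites uncertain. With C read as T, up to 151 nt around each site were set against the other transcripts of the MHC region. The most similar other transcript differed by as few as 4 bases, around sites of H2-K1 and of H2-D1. The most similar gene was H2-Q4 for H2-K1 positions 279 to 478 and for H2-D1 positions 220 to 299. Around the H2-D1 run the closest transcript was H2-K1, with 10 to 14 differences over 103 to 125 nt, since the windows end where the transcript does. The H2-D1 mRNA starts too late to cover whole windows around the H2-K1 sites near the start codon, so no distance is given for them. Around sites of H2-Aa, H2-Ab1 and H2-Eb1 the lowest number of differences was 13, with the same limit near transcript ends.

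The sites of H2-Ab1 near the start codon differed in the groups that listed them. Positions 110, 113 and 120 were listed in all 3 OGD/R 3 h libraries, with scores between 1 and 28, and in no other library. Position 153 was listed in all control and all OGD/R 3 h libraries, with scores of 26, 12 and 7 in control and 30, 28 and 5 in OGD/R 3 h. The ranges overlapped. The neighbouring position 152 was listed in all 3 control libraries, with 8, 11 and 1, and in no OGD/R library. In the CDS, position 301 had scores of 111, 512 and 118 in control and was listed in OGD/R 3 h in replicate 2 alone, at 60. In the 3' UTR, position 1123 was listed in the 3 OGD/R 3 h libraries with 18, 74 and 31.

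Cd74 lies on chromosome 18, and 7 of its 14 distinct sites of OGD/R 3 h were in the 3' UTR, 3 in the stop codon region, 2 in the CDS and 2 in the start codon region. Its highest scores were those of control at position 1100 of the 3' UTR in exon 9, with 762, 489 and 602. In OGD/R 3 h that position had 52 in replicate 1 and 152 in replicate 3, and replicate 2 did not list it. Position 571 in exon 6 had 234, 440 and 351 in control, 100 in OGD/R 1.5 h replicate 3 and no listing in OGD/R 3 h. Position 1111 was listed in control replicate 2 with 40 and in the OGD/R 3 h libraries with 32, 264 and 236. Positions 1100 and 1111 lie 11 nt apart, and the former was listed in more control libraries and the latter in more OGD/R 3 h libraries.

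H2-Aa had sites of either kind in its stop codon region. Position 882 was listed in the 3 control libraries with 57, 171 and 209 and nowhere else. Position 908 was listed in the 3 OGD/R 3 h libraries with 27, 84 and 35 and nowhere else. H2-Eb1 position 606 was listed in 1 library of each group, with 189 in control replicate 3, 63 in OGD/R 1.5 h replicate 1 and 49 in OGD/R 3 h replicate 1. C57BL/6 mice are known to lack the I-E alpha chain, so that H2-Eb1 has no partner in them.

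Pigr had sites over its whole length in OGD/R 3 h, with 20 in the CDS and 12 in the 3' UTR. In control these numbers were 11 and 4, and in OGD/R 1.5 h they were 4 and 5. Position 1379 in exon 5 had scores of 404, 615 and 235 in OGD/R 3 h and was listed in no other group. Positions 1939 and 2066 in exon 7 were likewise listed in OGD/R 3 h alone, with 409, 152 and 89 at the first and 227, 340 and 103 at the second. These 3 positions were chosen for their scores after the values were seen. In the other direction, position 1839 in exon 6 was listed in all control and OGD/R 1.5 h libraries and in OGD/R 3 h in replicate 3 alone, with a score of 82. Jchain position 149, 30 nt past the start codon, was listed in the 3 OGD/R 3 h libraries with 8, 48 and 51.

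The share of sites listed in all 3 libraries of a group depended on which sites were counted. In OGD/R 3 h, 53 of 118 distinct sites of the 9 genes (44.9%) were listed in all 3 libraries, against 30.8% of all mRNA sites of that group. In control 15 of 57 (26.3%) were, against 26.6%, and in OGD/R 1.5 h 9 of 29 (31.0%) were, against 18.0%. Among sites with no other site within 10 nt the order turned, with 20.9% in control, 30.8% in OGD/R 1.5 h and 26.2% in OGD/R 3 h. Class I had 23 of 43 sites in all 3 OGD/R 3 h libraries and 5 of 21 in all 3 control libraries. Class II had 11 of 35 in OGD/R 3 h and 6 of 14 in control, which is the larger share. Pigr with Jchain had 19 of 40 and 4 of 22. These are libraries of 1 sample, so that a repeated call says little about another sample.

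The groups shared part of their sites. Control and OGD/R 3 h had 19 sites of the 9 genes in common, which were 33.3% of the control sites and 16.1% of the OGD/R 3 h sites. Over all mRNA sites the shared portion was 20.5% and 16.9%. The 2 OGD/R groups had 14 sites in common, 48.3% of the OGD/R 1.5 h sites and 11.9% of the OGD/R 3 h sites, against 21.4% and 18.3% of all mRNA sites. Control and OGD/R 1.5 h had 10 in common, 34.5% of the OGD/R 1.5 h sites and 17.5% of the control sites, against 26.2% and 27.2%. Of the 167 sites, 34 were listed in control alone, 11 in OGD/R 1.5 h alone, 91 in OGD/R 3 h alone and 6 in all 3 groups. By library, 58 sites were listed in 1 library, 59 in 3 libraries and 0 in 8 or 9. Such counts are not given for all mRNA sites, so whether these are unusual cannot be read from them. Distinct mRNA sites numbered 6811 in control, 7051 in OGD/R 1.5 h and 8234 in OGD/R 3 h.

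Scores could be set side by side at the few sites listed in all 6 libraries of 2 groups. Between OGD/R 3 h and control there were 2, at Pigr position 3255 and H2-Ab1 position 153. Pigr position 3255 had 137, 219 and 180 in control and 80, 74 and 229 in OGD/R 3 h, a difference of -0.66 on the log2(score + 1) scale, and the groups overlapped. At H2-Ab1 position 153 the difference was 0.31. In neither did the libraries of the groups lie apart, as they did with higher scores at 10.8% and lower scores at 15.6% of 250 mRNA sites.

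OGD/R 1.5 h and control also shared 2 such sites. At Pigr position 1839 the scores were 727, 533 and 490 in control and 220, 447 and 371 in OGD/R 1.5 h, a difference of -0.79. Every OGD/R 1.5 h library was lower, as at 13.6% of 294 mRNA sites. At B2m position 75 the scores were 28, 7 and 51 in control and 38, 12 and 6 in OGD/R 1.5 h, which overlapped. The scores of OGD/R 1.5 h were higher than control in every library at 9.18% of the mRNA sites and at neither of these positions.

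The OGD/R groups shared 4 such sites. H2-D1 position 28, at the start of the run, had scores of 3, 3 and 11 in OGD/R 1.5 h and 182, 192 and 28 in OGD/R 3 h, a difference of 4.13 on the log2(score + 1) scale. All OGD/R 3 h libraries were higher, as at 12.5% of 200 mRNA sites. Pigr position 2724 in the 3' UTR had 368, 461 and 127 in OGD/R 1.5 h and 58, 89 and 66 in OGD/R 3 h, a difference of -1.98. All OGD/R 3 h libraries were lower there, as at 15.5% of the mRNA sites. Pigr positions 80 and 165 differed by -0.03 and -0.32 and overlapped.

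**Figure D5:**
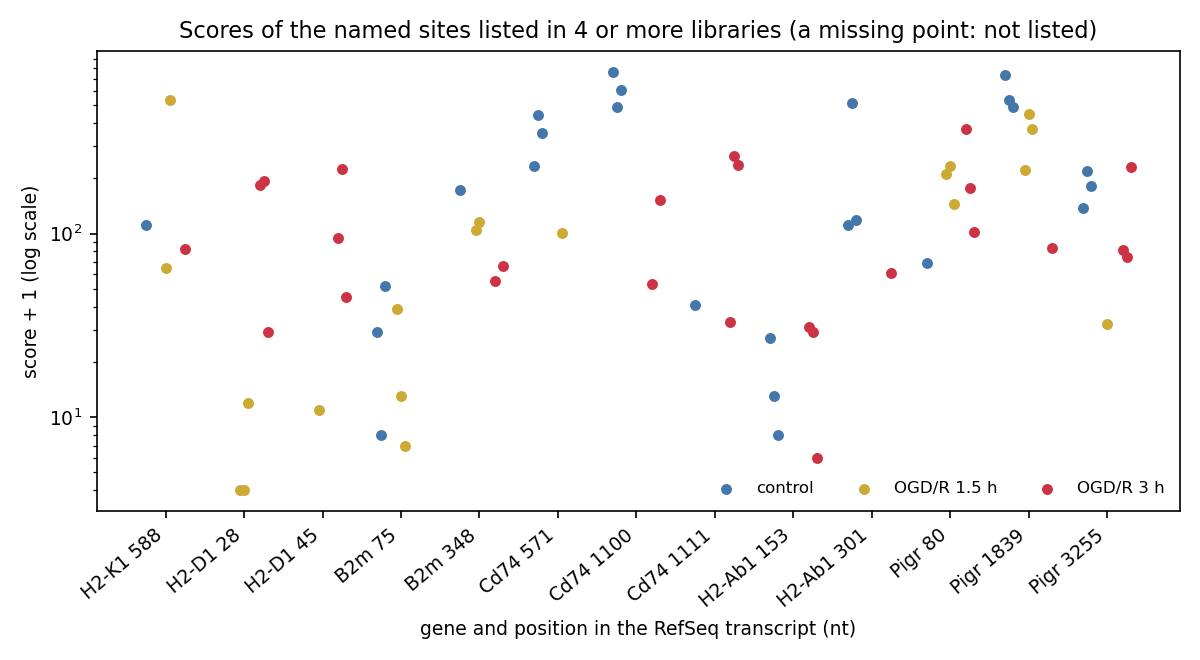
Score plus 1 (y axis, log scale) at the named sites that were listed in 4 or more libraries (x axis, gene and transcript position), 1 point per library, with no point where a library did not list the site. H2-D1 position 28 has OGD/R 3 h points of 28 to 192 above OGD/R 1.5 h points of 3 to 11, and the 3 control scores of Cd74 position 1100 lie at 489 to 762.

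The score also differed by place in the mRNA. In the start codon regions of the 9 genes, 60 of 146 scores were under 10, or 41.1%, with a median of 14.5. Elsewhere in the 9 mRNAs 0 of 246 scores were under 10, the lowest was 15 and the median 85.5. Over all mRNA sites, 55.7% of the scores were under 10 in start codon regions and 47.1% elsewhere. The limit of 10 had been set as an alternative filter, and the split by place was made after the values were seen. The sites of the 9 genes also had close neighbours less often than mRNA sites overall. The share with another site within 10 nt was 25.6% to 33.3% per library in control, 0% to 11.8% in OGD/R 1.5 h and 35.8% to 42.5% in OGD/R 3 h. Over all mRNA sites it was 46.3% to 47%, 39% to 40.2% and 50.3% to 51.7% in the same groups.

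Few sites of the 9 genes were in CG context. Over all groups 12.6% were CG, 40.1% were CHG and 47.3% CHH, where H is A, C or T. All mRNA sites had 22.4% in CG context. Among all cytosines of the 9 transcripts 10.0% were CG. The trinucleotide CTG held 31.1% of the sites of the 9 genes, 18.7% of all mRNA sites and 12.5% of the cytosines of the 9 transcripts, a motif picked after its share was seen. Class I had 19.7% CG and 28.8% CTG, class II 11.4% and 29.5%, and Pigr with Jchain 5.26% and 35.1%.

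Other genes of antigen presentation were read from a list of 39, of which 12 carried a site. More sites in every OGD/R 3 h library than in every control library were found for 6 of these 12, namely H2-T23, Tapbpl, Calr, Canx, Pdia3 and Psmb10, and fewer for 0, against 18.5% and 18.8% of all genes with a site. Calr, the chaperone calreticulin of the peptide-loading complex, had 1, 1 and 1 sites in control, 3, 4 and 5 after OGD/R 1.5 h and 21, 21 and 19 after OGD/R 3 h. Canx, the chaperone calnexin, had 22, 21 and 21 in control, 18, 20 and 21 after OGD/R 1.5 h and 29, 34 and 23 after OGD/R 3 h. Between OGD/R 1.5 h and control, 2 had more sites (Tapbpl and Calr) and 3 had fewer (H2-Q2, Tapbp and Fcgrt) among 10 with a site in these libraries, against 8.57% and 15.2% of all genes with a site. Tapbp, or tapasin, holds class I to the peptide transporter. It had 2, 1 and 2 sites in control, 0 in each OGD/R 1.5 h library and 0, 1 and 0 in OGD/R 3 h. Fcgrt, the neonatal Fc receptor that pairs with beta-2-microglobulin, had 2, 2 and 4 in control and 1, 0 and 0 in OGD/R 1.5 h. No site was listed in the mRNAs of the peptide transporter (Tap1 and Tap2), of the class I activator Nlrc5, of the class II activator Ciita or of the class II peptide exchanger (H2-DMa, H2-DMb1 and H2-DMb2).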

How the data were processed

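Bisulfite-treated RNA was measured in 9 libraries. The 9 mock libraries were not analysed here. According to the submitters' processing notes and the methods, reads were trimmed with cutadapt 1.9.3 and aligned to mm10, and sites were called in each library with meRanCall. The deposited values are a score per site, set by the authors' caller without normalization for depth, and the lists hold sites that reached a methylation level of 0.1 at 10 or more reads. Depth, level and intervals could not be derived from the score, so counts of sites stand in for them.

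Sites were assigned to exons of RefSeq mRNAs (GRCm38) on their strand in Python 3.11.15 (numpy 2.4.6, scipy 1.17.1; plots by matplotlib 3.10.9). Positions in a transcript count from 1 in the RefSeq mRNA with the longest CDS. Groups were compared by the number of sites per library and by log2(score + 1) with a pseudocount of 1. A difference was called where the libraries of the groups did not overlap. The check of replicates on coverage, which the authors list for control and OGD/R 3 h, was tested on simulated data. The members and gene lists were chosen with earlier results of these data known. Sites named in the text were up to 3 per gene, by number of libraries and then summed score, sites listed in 6 libraries of 2 groups, aligned positions with a site in both genes, and others said to be chosen after their values were seen or shown to describe a run.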

Additional observations from a re-analysis of the deposited data

Results flagged for a closer look

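Site numbers ran in opposite directions after the shorter and the longer deprivation, with every OGD/R 1.5 h library below and every OGD/R 3 h library above every control library. This held for the 9 genes as a whole, where the mean of OGD/R 3 h exceeded that of OGD/R 1.5 h by 65.3 sites per library. It also held for class I, with a difference of 25.3 sites, and for class II, with 20 sites. Of single genes it held for H2-K1, with a difference of 10 sites, and for H2-Ab1, with 8.67 sites. The mRNA sites of all genes, summed per library, had the same order. They numbered 3501 to 3738 in OGD/R 1.5 h, 3792 to 4137 in control and 4703 to 5229 in OGD/R 3 h. Gene by gene, 28 of all 2598 genes with a site (1.08%) showed this order. Genes with very few sites cannot show it, while H2-K1 and H2-Ab1 ranked 134 and 196 of 2598 by summed sites. The share among genes with as many sites was not derived. The difference between the effects at the 2 times was not tested, and both share the control libraries. The summed sites of the 21 intestinal epithelium markers, Pigr among them, had the same order, at 67 to 70, 102 to 122 and 236 to 253 sites per library in OGD/R 1.5 h, control and OGD/R 3 h, and their part was not tested. Gene by gene, 10 of the 21 had more sites in every OGD/R 3 h library than in every control library. Fewer sites were found for 3 (Fabp1, Lgals4 and Apoa4), against a background of 18.5% with more and 18.8% with fewer. In OGD/R 1.5 h, 0 had more and 7 fewer sites than control, against 8.57% and 15.2% of all genes with a site. Without Pigr and Fcgbp the sums were 42 to 50, 83 to 96 and 140 to 158.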

How the results depend on the processing

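Of 191 values recomputed under other settings, 137 stayed within a limit and 54 moved beyond it. The limit was the spread between libraries for site numbers, start codon region shares and scores. For the share of sites in all 3 libraries it was an interval that treats sites as independent. For aligned positions it was a fixed factor. Among site numbers and scores, 0 values turned the direction of a difference whose groups lay apart. For OGD/R 3 h against control, the log2 ratio of site numbers in the 9 genes was 1.36 and became 1.82 with sites called in all 3 libraries, 1.64 in at least 2, 1.05 both in the union and as a share of mRNA sites. Class I gave 2.20 in all 3 libraries, 1.03 in the union, 0.83 with isolated sites (no other within 10 nt) and 1.03 as a share, from 1.34. Class II gave 0.87 in all 3 libraries and 0.94 as a share, from 1.25. Pigr with Jchain gave 2.25 in all 3 libraries, 2.43 in at least 2 and 0.86 in the union, from 1.47. For OGD/R 1.5 h against control, isolated sites gave -0.58 in the 9 genes and -0.46 in class I, where at least 2 libraries gave -1.26 and scores of at least 10 gave -1.22. There, Pigr with Jchain had a log2 ratio of -0.25, with 0.58 in all 3 libraries, 0.49 in at least 2, -0.76 in the union and 0.03 without control replicate 2, and its groups overlapped. Between the OGD/R groups the 9 genes moved from 2.30 to 2.56, 2.64, 2.02, 2.41, 1.71 and 1.86 under all 3, at least 2, union, score, isolated sites and share, and class I from 2.26 to 2.94, 2.58, 1.84, 2.75, 1.29 and 1.82. Pigr with Jchain gave 1.95 in at least 2, 1.32 with isolated sites and 1.29 as a share. Class II in all 3 libraries gave no value where OGD/R 1.5 h had 0 sites.

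The start codon region share of the 9 genes was 14.0% in control, 20.7% in OGD/R 1.5 h and 26.3% in OGD/R 3 h with 50 nt on either side, and 15.4%, 19.2% and 29.2% with scores of at least 10. With sites called in all 3 libraries it was 46.7%, 44.4% and 60.4%. Without a replicate it ranged from 23.1% to 27.5% in control and from 34.0% to 35.3% in OGD/R 3 h. The share of sites in all 3 libraries became 15.4% in control and 29.2% in OGD/R 3 h with scores of at least 10, while OGD/R 1.5 h had 19.2%. With isolated sites it was 20.9% in control, 30.8% in OGD/R 1.5 h and 26.2% in OGD/R 3 h, so that OGD/R 3 h no longer had the highest share. Aligned positions of H2-K1 and H2-D1 with sites in both numbered 8 within 3 nt, against 4. The mean score difference of OGD/R 3 h against control, -0.17 over 2 sites, was -1.03 over 3 sites listed in at least 2 libraries of each group. Without a replicate, this difference ranged from -1.06 (OGD/R 3 h replicate 2, over 3 sites) to -0.027 (control replicate 1, over 2 sites), so the sets of sites differed. That of the OGD/R groups, 0.45, ranged from 0.19 without OGD/R 1.5 h replicate 1 to 0.84 without OGD/R 1.5 h replicate 2, and its median over 4 sites was -0.17. The cause of these moves was not tested. No paired analysis was possible because these results come from no test, and the libraries of a group were counted as 1 sample.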
